A study of Mus musculus with 9 samples.

Results

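*Cryga*, *Crygb*, *Crygc*, *Crygd*, *Cryge*, *Crygf* and *Crygs* encode gamma crystallins, structural proteins of the lens fiber cell, and their RNA was followed through embryonic E16.5 mouse lenses that carried different numbers of functional *Mafg* and *Mafk* alleles. The members were the entries of the deposited table with one of these 7 symbols. Each symbol was found once, so that the group makes up 7 of the 15820 entries with a symbol and of the 22013 entries in all. RNA-sequencing (RNA-seq) of 9 libraries covered 3 genotypes with 3 libraries each, namely control (*Mafg*+/-:*Mafk*+/-), compound KO (*Mafg*-/-:*Mafk*+/-) and double KO (*Mafg*-/-:*Mafk*-/-) lenses. The knockout (KO) alleles are germline, the mice were kept on an ICR background, and every control lens also carried a knockout allele of both genes, so that no wild-type lens enters any comparison. Each library held RNA of 8 lenses, and p-values therefore describe the spread between pools of lenses. The values are CPM, read counts relative to the size of the library, which had been scaled by a factor for each library before deposit, and the number of reads behind them is unknown, so that precision is given by the spread between replicates alone.

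Crystallins make up most of the soluble protein of the lens and give it its refractive power. Gamma crystallins are monomeric members of the beta/gamma superfamily that pack densely in fiber cells, and mutations in their genes cause congenital cataract. *Cryga* to *Crygf* are turned on as epithelial cells differentiate into fiber cells, while *Crygs* is a more distant member known for its use in the later, secondary fiber cells. Large Maf proteins such as Maf activate crystallin genes through Maf recognition elements, which small Maf proteins such as *Mafg* and *Mafk* can also bind although they lack a transactivation domain.

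The genes of *Cryga* to *Crygf* lie on chromosome 1 and that of *Crygs* on chromosome 16 (GENCODE release M39 on GRCm39, which is the assembly named mm39 by the authors). On the minus strand, *Cryge* occupies chr1:65087713-65090400, *Crygd* chr1:65100997-65102752, *Crygc* chr1:65110684-65112848, *Crygb* chr1:65119378-65121458 and *Cryga* chr1:65139548-65142537. *Crygf* lies apart from this row, on the plus strand at chr1:65965679-65967466, and *Crygs* is at chr16:22623953-22630327 on the minus strand. All 7 annotated transcripts have 3 exons, with coding sequences of 522 bases in *Cryga*, *Crygc*, *Crygd*, *Cryge* and *Crygf*, 525 in *Crygb* and 534 in *Crygs*.

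The coding sequences are so alike that reads can be hard to assign to a single member. *Cryge* and *Crygf* were identical at 98.1% of aligned coding bases, *Crygd* and *Cryge* at 91.6%, *Crygd* and *Crygf* at 90.6%, and *Crygb* and *Crygc* at 83.4%. *Crygs* differed most, with 58.6% to 60.2% identity to the other members. The identity of *Crygb* and *Crygc* was concentrated in an unbroken run of 221 coding bases starting at base 7, and the longest shared run of *Cryge* and *Crygf* held 134 bases starting at base 304 of the *Cryge* coding sequence. Both runs are shown because a read that falls inside one fits either gene:
Crygb and Crygc: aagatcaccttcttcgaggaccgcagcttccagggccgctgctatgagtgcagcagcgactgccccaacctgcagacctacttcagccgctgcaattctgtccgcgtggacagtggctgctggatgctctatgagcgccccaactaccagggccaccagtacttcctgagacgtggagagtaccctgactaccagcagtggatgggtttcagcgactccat
Cryge and Crygf: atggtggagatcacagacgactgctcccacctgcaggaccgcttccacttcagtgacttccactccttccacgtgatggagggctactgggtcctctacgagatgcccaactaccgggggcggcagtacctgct

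Of all windows of 1 read length along each annotated transcript, 22.2% of *Crygb* and 17.7% of *Crygc* were shared between these genes. In *Cryge*, 22.6% of the windows were also found in *Crygd* or *Crygf*, and the share was 11.6% in both *Crygd* and *Crygf*. In *Cryga*, 47.2% were shared with *Gm28845*, an annotated gene that overlaps it on the same strand and had values of 0.6 to 1.1 in the 9 libraries. *Crygs* shared no window. The values of *Crygb* against *Crygc*, and of *Crygd*, *Cryge* and *Crygf* against each other, are uncertain to the extent that the counting divided shared reads between them, and those of *Cryga* to the extent that it divided them with *Gm28845*.

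The members of chromosome 1 also share promoter elements, which are shown because *Mafg* and *Mafk* act at promoters and distal sites. In the 120 bases before the transcription start of RefSeq's table, placed on GRCm39 by exact match, TATATA was found in all 6 members of chromosome 1, against 2.51% of 32851 promoters of the same length searched on both strands. No longer run of bases was common to these 6 promoters, and the other of this length, TTTGTG, was found in 7.30% of all promoters. *Crygs* had TATAAA, found in 6.34%. TGCTGA, a part of a Maf recognition element, was in none of the 7 windows and in 8.18% of all promoters. This says only that these letters are not in these windows. GENCODE starts lie upstream of the RefSeq starts, and for *Crygc*, *Crygd*, *Cryge* and *Crygs* most or all of the window lies in an annotated exon. For these genes 30 bases around the TATA element are printed, and for *Cryga*, *Crygb* and *Crygf* the bases of the window upstream of the first exon. The runs are at chr1:65142538-65142642 for *Cryga*, chr1:65121459-65121569 for *Crygb*, chr1:65112703-65112732 for *Crygc*, chr1:65102612-65102641 for *Crygd*, chr1:65090323-65090352 for *Cryge*, chr1:65965561-65965678 for *Crygf* and chr16:22630168-22630197 for *Crygs*, each on the strand of its gene and read 5′ to 3′, with the TATA elements and TTTGTG in capitals:
Cryga: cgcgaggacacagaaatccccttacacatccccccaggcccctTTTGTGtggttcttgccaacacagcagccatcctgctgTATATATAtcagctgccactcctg
Crygb: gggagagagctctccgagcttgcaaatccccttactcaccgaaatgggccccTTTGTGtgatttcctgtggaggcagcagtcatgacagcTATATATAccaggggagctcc
Crygc: caaccctcctgcTATATAgaccagccactc
Crygd: cagacctcctgcTATATAgaccctgctccc
Cryge: cagacctcctgcTATATAgaccctgctccc
Crygf: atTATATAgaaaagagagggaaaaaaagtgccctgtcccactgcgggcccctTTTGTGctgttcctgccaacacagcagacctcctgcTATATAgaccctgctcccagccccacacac
Crygs: tgaactgccctcTATAAAtgtccctctgcc

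The runs of *Crygd* and *Cryge* are the same, and the *Crygf* run contains them. Over the whole 120-base windows, *Crygd* and *Crygf* were identical at 83.7% of aligned bases, *Cryge* and *Crygf* at 73.9%, and *Crygs* at no more than 47.3% to any other member. *Cryga* and *Crygb* have an extended TATATATA, in which TATATA is found at overlapping positions.

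The knockout alleles were visible in the RNA. *Mafg* had values of 112.9 to 134.5 in control, 10.1 to 24.1 in compound KO and 21.2 to 26.2 in double KO lenses. *Mafk* was low throughout, at 5.2 to 6.3 in control, 4.3 to 5.3 in compound KO and 0.0 to 0.6 in double KO lenses. Compound KO replicate 1 stood apart from the other 8 libraries before any comparison. Its summed value was 6937.5 over the 19 lens fiber cell markers found of 20, against 15653.2 to 21835.9 in the others. Summed markers of several other tissues were highest in it, with 2303.0 over 10 of 10 mesenchyme and fibroblast genes against 178.7 to 362.7. Neural retina genes had 938.1 over 8 of 10 against 30.5 to 228.0, and retinal pigment epithelium genes 721.5 over 6 of 7 against 4.1 to 35.7. The same held for 10 of 10 skeletal muscle genes, at 423.3 against 3.5 to 100.5, and for 4 of 7 surface and corneal epithelium genes, at 298.6 against 2.1 to 10.2. It did not hold for 7 of 8 erythroid genes, at 1425.1 against 1169.7 to 3866.6. None of the markers found was at 0 in all libraries. The part of these cells in the gamma crystallin values was not tested, and in bulk RNA fewer fiber cells and less RNA per fiber cell cannot be told apart. Results that rest on this library are given with and without it.

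Gamma crystallins were among the most abundant RNAs of the lens. By mean value over the 9 libraries, *Cryga* ranked 3, *Crygd* 4, *Crygb* 5, *Crygf* 7, *Crygc* 9 and *Cryge* 10 among the entries with a symbol, and *Crygs* 50. Levels were compared between members per kilobase of annotated transcript. In control lenses *Cryga* was highest, at 35236 ± 2526 per kilobase (SD, n = 3), followed by *Crygb* at 27183 ± 3582, *Crygd* at 21534 ± 3058, *Crygf* at 17888 ± 1631, *Crygc* at 10725 ± 3172, *Cryge* at 9862 ± 2048 and *Crygs* at 1174 ± 199. The libraries of *Cryga* did not overlap with those of *Crygb*, those of *Crygf* did not overlap with those of *Crygc*, and those of *Cryge* did not overlap with those of *Crygs*. The neighbours *Crygb* and *Crygd*, *Crygd* and *Crygf*, and *Crygc* and *Cryge* did overlap, so that their order is not settled by these libraries. In double KO lenses the 4 highest members by mean level per kilobase stood in the same order, with *Cryge* (10201 ± 1226) before *Crygc* (8776 ± 1886), whose libraries overlapped. Each of these 4 also overlapped with the next of the 4, so that their order is not settled there either. *Cryga* had 26909 ± 23939 per kilobase in double KO lenses, with 2889 in replicate 3, where only *Crygs* was lower. In compound KO lenses the mean of *Crygb* stood behind those of *Crygd* and *Crygf*, at 10343 ± 10119 per kilobase. Its libraries overlapped with those of *Crygf* and *Crygc*. This mean took in 111 in replicate 1, beside 10574 and 20346 in replicates 2 and 3. In replicate 2 *Crygb* was below *Crygd* (17888) and *Crygf* (12589), and in replicate 3 it was above both (14133 and 13203). *Cryga* had the highest and *Crygs* the lowest mean per kilobase in each of the 3 genotypes.

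**Figure D1:**
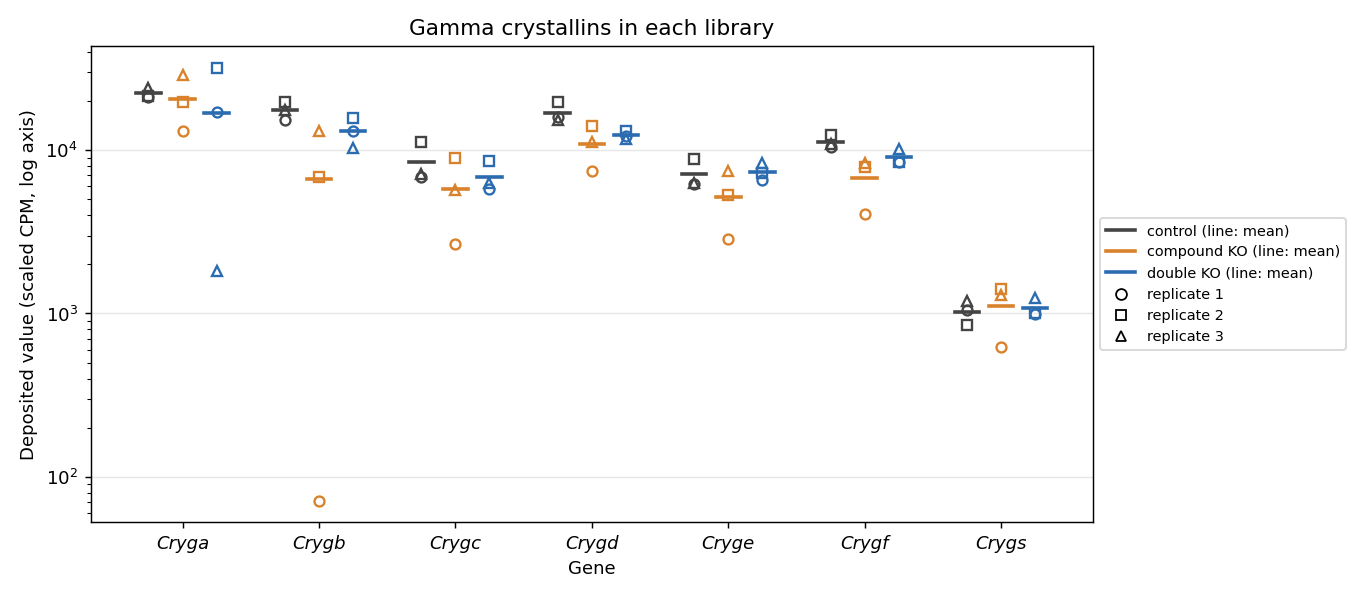
Deposited value (scaled CPM, log axis) of each gamma crystallin gene in each of the 9 libraries, with genotype by color, replicate by symbol and the mean of each genotype as a line. The 2 lowest points relative to their gene are *Crygb* at 71.6 in compound KO replicate 1 and *Cryga* at 1819.9 in double KO replicate 3.

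*Cryga*, the most abundant member, had values of 21140.0, 21426.5 and 24028.6 in the control libraries. In compound KO replicates 1, 2 and 3 it had 13008.1, 19572.9 and 28764.1, and in double KO replicates 1, 2 and 3 it had 17055.6, 31982.9 and 1819.9. The control libraries lay close together, with a coefficient of variation (CV) of 7.17%, while both mutant groups spread to either side of them, with CVs of 38.7% and 89.0%. The value in double KO replicate 3 was 0.0861 times the median of the 9 libraries. Over the 9 libraries the other 6 members were lowest in compound KO replicate 1. Within double KO lenses *Crygb* (10337.0) and *Crygd* (11743.1) were also lowest in replicate 3, while *Crygc*, *Cryge*, *Crygf* and *Crygs* were not.

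*Crygb* had values of 15184.8, 19803.8 and 17611.0 in control lenses. Compound KO lenses had 71.6, 6819.9 and 13123.0, and double KO lenses had 13129.1, 15788.6 and 10337.0. All 3 compound KO libraries were below the lowest control library, whereas double KO replicate 2 was above it. The value of 71.6 in compound KO replicate 1 was 0.00545 times the median over the 9 libraries. *Crygc*, which shares the coding run shown above with *Crygb*, had 2656.2 in that library, or 0.316 times the mean of its control libraries.

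*Crygc* had 6813.3, 11259.7 and 7120.1 in control, 2656.2, 8999.5 and 5719.7 in compound KO, and 5783.0, 8552.8 and 6278.2 in double KO lenses. The groups overlapped, with replicate 2 the highest in each genotype. For *Crygb* and *Crygc* together, which are less dependent on how shared reads were divided, the sum was 21998.1, 31063.5 and 24731.1 in control, 2727.8, 15819.4 and 18842.7 in compound KO, and 18912.1, 24341.4 and 16615.2 in double KO lenses. The compound KO sums were all below the control sums, and the double KO sums overlapped with them.

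*Crygd* had 15958.4, 19719.1 and 15228.3 in control lenses. It had 7436.9, 14096.0 and 11136.7 in compound KO and 12115.5, 13025.2 and 11743.1 in double KO lenses. All 6 mutant libraries lay below the lowest control library, and the double KO libraries had the smallest spread of any member and genotype, with a CV of 5.36%.

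*Cryge* had 6243.1, 8839.6 and 6307.3 in control, 2859.8, 5283.9 and 7448.2 in compound KO, and 6575.6, 7220.9 and 8328.3 in double KO lenses. All 3 groups overlapped. *Crygf*, its near-identical partner in coding sequence, had 10442.6, 12375.5 and 10828.9 in control, 4036.1, 7893.3 and 8278.2 in compound KO, and 8508.8, 8451.8 and 10138.6 in double KO lenses. For *Crygf* all 6 mutant libraries were below the lowest control library, and the double KO libraries were all above the compound KO libraries.

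*Crygs* had 1045.1, 844.3 and 1191.3 in control, 623.1, 1403.8 and 1290.7 in compound KO, and 989.0, 1007.9 and 1249.6 in double KO lenses. The groups overlapped. Apart from compound KO replicate 1, which was the lowest library for 6 of the members, every value of *Crygs* lay between 844.3 and 1403.8.

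To ask whether loss of both small Maf genes altered gamma crystallin RNA, double KO lenses were compared with control lenses. No member passed the test. In the deposited scaling the double KO libraries of *Crygd* and *Crygf* all lay below the control libraries, and *Cryge* and *Crygs* had mean differences near 0. The log2 fold change, taken on value + 1, was -0.46 (SE 0.12, 95% interval -0.76 to -0.16) for *Crygd* and -0.31 (SE 0.11, 95% interval -0.59 to -0.037) for *Crygf*. By limma, the unadjusted p was 0.0103 for *Crygd* and 0.0325 for *Crygf*, and the Benjamini-Hochberg adjusted p over 14122 genes was 0.310 and 0.443. Both folds were below the 1.5-fold threshold. Of the 7 members, 0 reached the call (adjusted p 0.05 or less and 1.5-fold or more), where 0.361% of all genes tested were called, 0 at an unadjusted p and 1.5-fold (2.83% of all genes), and 2 at an unadjusted p alone (9.97% of all genes). Libraries were all lower in double KO than in control lenses for 2 of 7 members and for 8.04% of all genes tested.

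*Crygb* had a log2 fold change of -0.44 (SE 0.19, 95% interval -0.90 to 0.028, adjusted p 0.535 by limma) and *Crygc* of -0.27 (SE 0.25, 95% interval -0.89 to 0.34, adjusted p 0.780 by limma). For *Cryge* it was 0.061 (SE 0.17, 95% interval -0.36 to 0.48) and for *Crygs* 0.082 (SE 0.16, 95% interval -0.31 to 0.47). In this fit, differences larger than 1.5-fold in either direction lie outside both intervals. This did not hold in a single fit of all 9 libraries, where the intervals reached 0.88 for *Cryge* and 0.79 for *Crygs*. *Cryga* had -1.15 (SE 1.06, 95% interval -3.77 to 1.47), which rested on double KO replicate 3, and without that library it had 0.076 (SE 0.29). *Cryge* and *Crygs*, near 0 with all libraries, came to -0.030 and -0.026 without double KO replicate 3. The signs of all 7 differences in this comparison were the same under each of the 4 other scalings tried, including a scaling to the summed value of lens fiber cell genes, under which *Crygd* was -0.24 and *Crygf* -0.093. Under that scaling the double KO libraries of *Crygf* overlapped with the control libraries, and those of *Crygd* still lay below them, as for 170 of all 13766 genes tested. It moved the median of all genes to 0.20, with *Cryge* at 0.28 (95% interval 0.0099 to 0.55) and *Crygs* at 0.30 (95% interval -0.14 to 0.74).

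Lenses that lack *Mafg* but keep a *Mafk* allele were compared with control lenses next. Here 6 of 7 members had negative differences in the deposited scaling, of which 4 turned positive when values were scaled to lens fiber cell genes. *Crygb*, *Crygd* and *Crygf* were lower in every compound KO library than in any control library, but the spread was wide and no member passed the test. All 3 overlapped with control lenses under the scaling to lens fiber cell genes, as *Crygd* did under library totals. *Crygf* had a log2 fold change of -0.80 (SE 0.36, 95% interval -1.70 to 0.092, adjusted p 0.481 by limma), and *Crygd* of -0.68 (SE 0.37, 95% interval -1.60 to 0.24, adjusted p 0.482 by limma). *Crygb* had -3.22 (SE 1.98, 95% interval -8.14 to 1.69, adjusted p 0.495 by limma), a value set by compound KO replicate 1. *Crygc* had -0.67 (SE 0.51), *Cryge* -0.54 (SE 0.41), *Cryga* -0.19 (SE 0.45) and *Crygs* 0.034 (SE 0.34). By limma, 0 of 7 members were called at an adjusted p and 1.5-fold, where 0.0% of all 14348 genes tested were called, 0 at an unadjusted p and 1.5-fold (5.34% of all genes) and 0 at an unadjusted p alone (9.30% of all genes). Libraries were all lower in compound KO than in control lenses for 3 of 7 members and for 11.7% of all genes tested.

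Without compound KO replicate 1 the negative differences were smaller, while that of *Crygs* was larger. All compound KO libraries of *Crygs* were then above the control libraries, as for 2255 of all 14042 genes tested. *Crygb* then had a log2 fold change of -0.88 (SE 0.31, unadjusted p 0.0415, adjusted p 0.415 by limma). It was the 1 member past the unadjusted p and 1.5-fold, which 517 of all 14042 genes passed. *Crygf* had -0.47 (SE 0.10), *Crygd* -0.43 (SE 0.17), *Crygc* -0.19 (SE 0.32) and *Cryge* -0.17 (SE 0.23), while *Cryga* had 0.099 (SE 0.20) and *Crygs* 0.40 (SE 0.16). With all libraries, scaling to the lens fiber cell genes moved the median of all genes by 0.67 and turned *Cryga* (0.53), *Crygc* (0.057), *Crygd* (0.044) and *Cryge* (0.18) to positive values, and scaling to library totals, which moved that median by 0.24, turned *Cryga* to 0.067. Under the lens fiber cell scaling *Crygs* had 0.76 (SE 0.22, unadjusted p 0.00835, adjusted p 0.306 by limma), with all compound KO libraries above the control libraries. It was the 1 member past the unadjusted p and 1.5-fold. Under this scaling 8530 of all 14230 genes tested were higher in every compound KO library, and 1271 passed the unadjusted p and 1.5-fold. Relative to the median of all genes under the lens fiber cell scaling, *Crygb* stood at -3.17, *Crygf* at -0.75, *Crygd* at -0.62 and *Crygc* at -0.61. *Cryge* stood at -0.49, *Cryga* at -0.14 and *Crygs* at 0.088. Taking off the median largely undoes a scaling, so that these values had to lie near those of the deposited scaling, such as -0.82 for *Crygf* and -0.70 for *Crygd*. They are no separate result.

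The comparison of double KO with compound KO lenses addresses the remaining *Mafk* allele. *Crygf* was higher in every double KO library than in any compound KO library, with a log2 fold change of 0.49 (SE 0.36, 95% interval -0.40 to 1.38, adjusted p 0.665 by limma). The other 6 members overlapped between the groups. *Crygb* had 2.79 (SE 1.98), *Cryge* 0.60 (SE 0.40), *Crygc* 0.39 (SE 0.49), *Crygd* 0.22 (SE 0.35), *Crygs* 0.047 (SE 0.34) and *Cryga* -0.96 (SE 1.12). By limma, 0 of 7 members were called at an adjusted p and 1.5-fold (0.0139% of all 14402 genes tested), 0 at an unadjusted p and 1.5-fold (3.06%) and 0 at an unadjusted p alone (4.87%). Libraries were all higher for 1 of 7 members and for 8.17% of all genes. Without compound KO replicate 1 *Crygb* had 0.45 (SE 0.35), *Crygf* 0.16 (SE 0.11), *Cryge* 0.23 (SE 0.19), *Crygc* -0.083 (SE 0.27) and *Crygd* -0.029 (SE 0.13), and without double KO replicate 3 *Cryga* had 0.27 (SE 0.72). Under the scaling to lens fiber cell genes *Crygc*, *Crygd*, *Crygf* and *Crygs* turned to negative values, of -0.11, -0.28, -0.014 and -0.46, and *Crygf* overlapped between the groups, as it did with crystallins left out of the total. The 3 comparisons share libraries in pairs, so that their values for a member are not independent of each other.

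**Figure D2:**
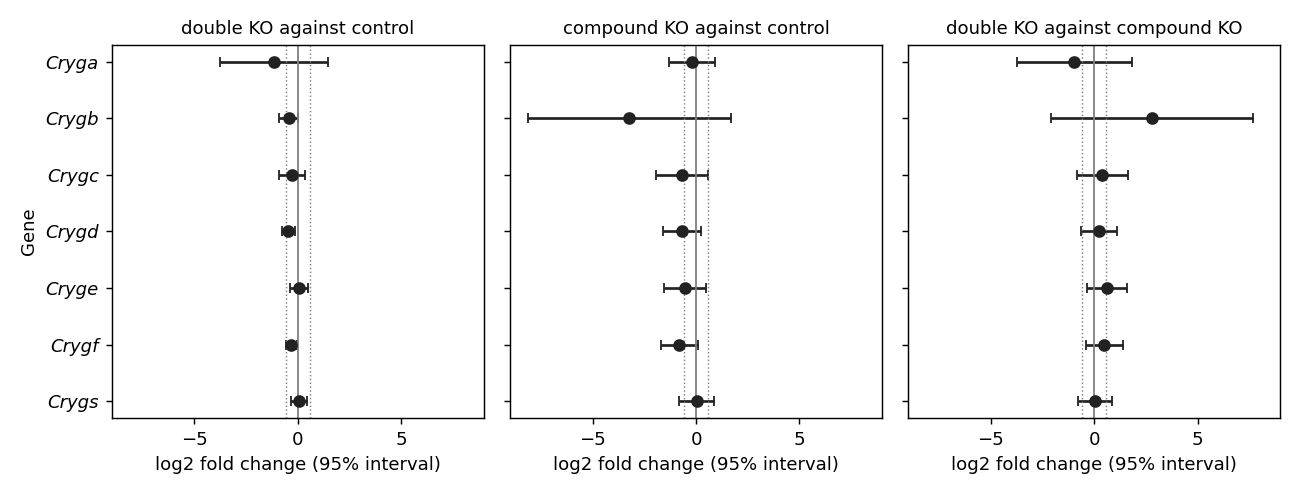
Log2 fold change on value + 1 (points) with its 95% interval (bars) for each gamma crystallin gene in the 3 comparisons of genotypes, with dotted lines at 1.5-fold in either direction. The intervals of *Crygd* and *Crygf* in double KO against control lie below 0, and all others include 0.

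The summed value of the 7 members gave the weight of the group in each lens. It was 76827.3, 94268.5 and 82315.5 in control, 30691.8, 64069.3 and 75760.6 in compound KO, and 64156.6, 86030.1 and 49894.7 in double KO lenses, or 7.41%, 8.33% and 7.69%, 4.22%, 6.49% and 7.41%, and 6.57%, 8.38% and 4.61% of the table's total. The compound KO sums were below all control sums, and the double KO sums overlapped with them. Without *Cryga* the sum was 55687.3 to 72842.0 in control, 17683.7 to 46996.5 in compound KO and 47101.0 to 54047.2 in double KO lenses, so that both mutant groups lay below the control libraries. As a share of the table's total it was 5.37% to 6.44%, 2.43% to 4.59% and 4.45% to 5.27%, again below the control libraries in both mutant groups, which overlapped with each other on this scale. This sum leaves out the member with the outlying low value in double KO replicate 3. It also leaves out that member's highest value of the 9 libraries, 31982.9 in double KO replicate 2. The full sum overlapped with the control sums only through that library, at 86030.1. Without *Cryga* the gap was narrow, with 54047.2 in double KO replicate 2 against 55687.3 in control replicate 1. Neither sum was examined under the scaling to lens fiber cell genes. Under that scaling *Crygb*, *Crygd* and *Crygf* of compound KO lenses, and *Crygf* of double KO lenses, overlapped with control lenses.

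The makeup of this sum was followed as the share of each member. In control lenses *Cryga* contributed 22.7% to 29.2%, *Crygb* 19.8% to 21.4%, *Crygd* 18.5% to 20.9%, *Crygf* 13.1% to 13.6%, *Crygc* 8.65% to 11.9%, *Cryge* 7.66% to 9.38% and *Crygs* 0.896% to 1.45%. *Crygf* was the member with the steadiest share among control libraries (CV 1.96%). The share of *Crygb* in double KO lenses was 18.4% to 20.7%, while in compound KO replicates 1, 2 and 3 it was 0.233%, 10.6% and 17.3%, all below the control and double KO libraries. The share of *Cryga* in compound KO lenses was 30.5% to 42.4%, above every control library. In double KO replicate 3 *Cryga* contributed 3.65%, and *Crygf* with 20.3%, *Cryge* with 16.7% and *Crygd* with 23.5% took larger shares than in any other double KO or control library. The share of *Crygs* was 1.70% to 2.19% in compound KO lenses, above every control library.

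**Figure D3:**
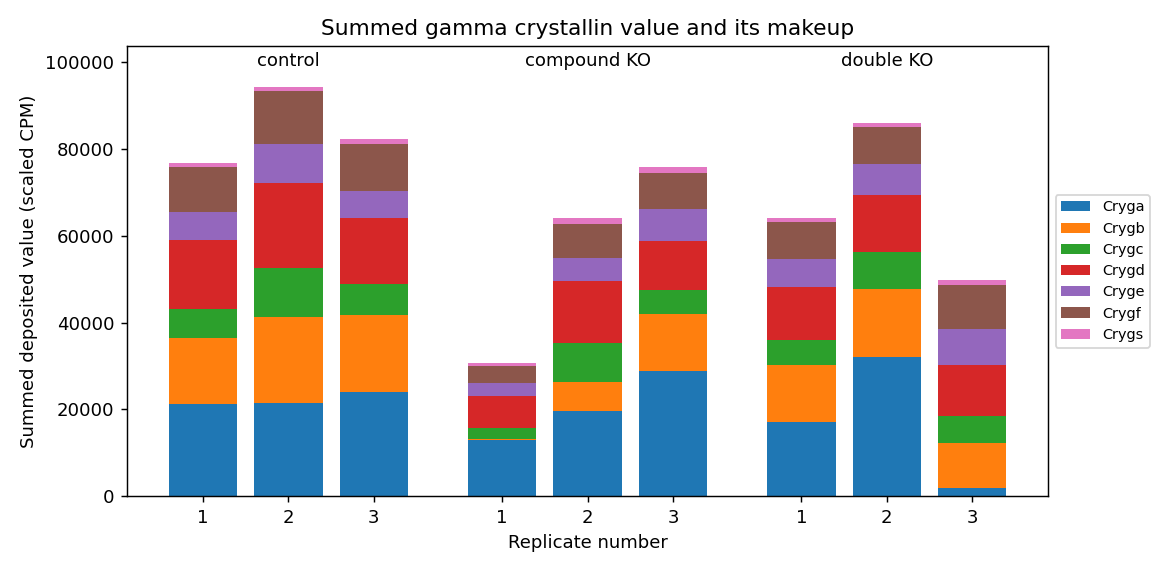
Summed deposited value (scaled CPM) of the gamma crystallins in each library as stacked bars, with a color for each member and the libraries ordered by genotype and replicate number. The sum is lowest in compound KO replicate 1, at 30691.8, and the *Cryga* part is nearly missing in double KO replicate 3.

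Relations between members were measured by correlation of log2(value + 1) over the 9 libraries, for 21 pairs. *Crygb*, *Crygc*, *Crygd*, *Cryge* and *Crygf* varied together over all libraries, r was lower for their pairs with *Crygs*, and lowest for the pairs with *Cryga*, which rested on double KO replicate 3. Pearson's r was 0.70 to 0.93 among the 10 pairs of *Crygb* to *Crygf*, with *Crygb* and *Crygf* highest (r = 0.93, exact permutation p 0.0031, adjusted 0.0216; Spearman's rho = 0.83, p 0.0083, adjusted 0.0868). It was 0.91 for *Crygc* and *Crygd* (exact permutation p 0.0018, adjusted 0.0216; rho = 0.83, p 0.0083, adjusted 0.0868) and 0.90 for *Crygd* and *Crygf* (exact permutation p 0.0022, adjusted 0.0216; rho = 0.75, p 0.0255, adjusted 0.134). Of the 21 pairs 6 passed an adjusted exact permutation p of 0.05 by Pearson's r and 0 by Spearman's rho. The other 3 of the 6 were *Crygb* with *Crygd* (r = 0.80; rho = 0.75), *Crygb* with *Cryge* (r = 0.91; rho = 0.50), and *Cryge* with *Crygf* (r = 0.89; rho = 0.53), each with an exact permutation p adjusted to 0.0416 for r and of 0.134, 0.452 and 0.443 for rho.

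The near-identical pair *Cryge* and *Crygf* had r of 0.89 and the pair *Crygb* and *Crygf*, which share 81.6% of coding bases, r of 0.93, while for deviations from the genotype means r was 0.94 and 0.93, and the difference between the pairs was not tested. *Crygs* had r of 0.36 to 0.68 with *Crygb* to *Crygf* and rho between -0.23 and 0.13. *Cryga* had r of -0.081 to 0.27 and rho of 0.13 to 0.63 with the other members, and none of its 6 pairs passed. Without double KO replicate 3, where *Cryga* was far below its other values, its r with the other members was 0.45 (with *Crygd*) to 0.74 (with *Cryge*), and r over all 21 pairs was at least 0.42.

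Much of this relation rested on compound KO replicate 1. Without the 2 libraries farthest from the median of the first member named, r was 0.52 for *Crygb* and *Crygf*, 0.51 for *Crygc* and *Crygd*, 0.49 for *Crygd* and *Crygf*, 0.84 for *Crygb* and *Crygd*, -0.069 for *Crygb* and *Cryge* and 0.20 for *Cryge* and *Crygf*. Without compound KO replicate 1 alone, r over the 21 pairs ran from -0.76 to 0.77 with a median of 0.16, against a median of 0.68 with all libraries, and 0 of 21 pairs passed. In that setting *Crygc* and *Crygd* (0.77) and *Crygd* and *Crygf* (0.74) had the highest r, and *Crygs* had negative r with each of the other 6 members, from -0.76 with *Crygb* to -0.25 with *Cryga*. For deviations from the genotype means the median r was 0.74, with 0 of 21 pairs past the adjusted p of permutations within genotypes. There are only 216 such permutations, too few for 1 pair alone to pass after adjustment over 21 pairs. *Crygc* and *Crygd*, with r of 0.98, had an adjusted p of 0.130 by permutation within genotypes. Under the scaling to lens fiber cell genes the median r was -0.14, and 0 of 21 pairs passed.

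**Figure D4:**
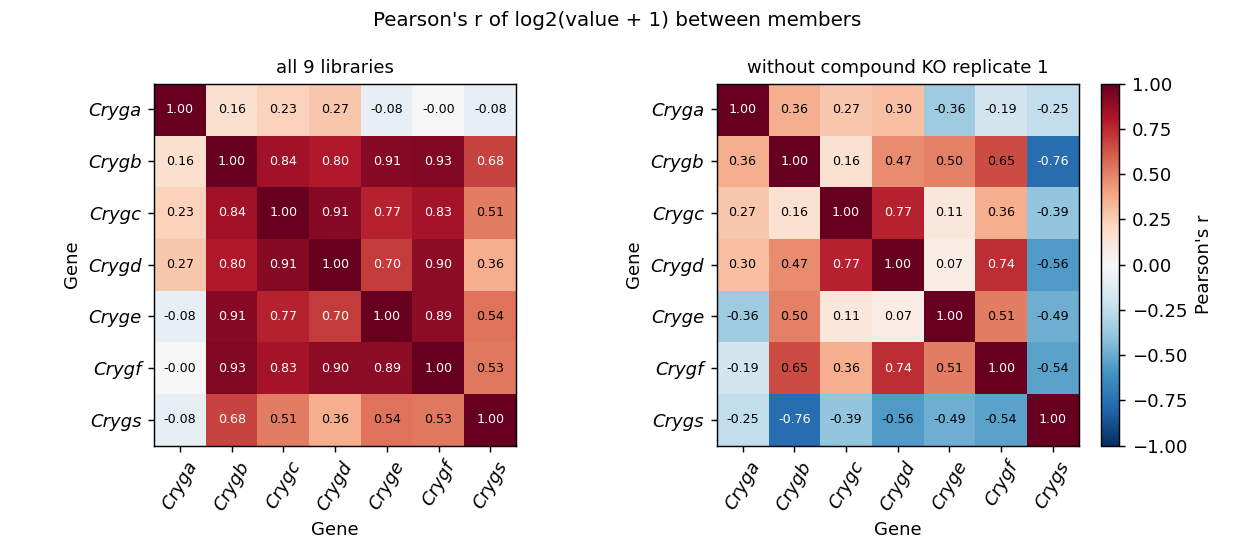
Pearson's r of log2(value + 1) for every pair of gamma crystallins (color and number), over all 9 libraries at left and without compound KO replicate 1 at right. The block of high r among *Crygb* to *Crygf* at left is weaker at right, and the row of *Crygs* turns negative.

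Other lens genes were read in the same libraries to show whether the members stood apart from them. For each gene whose control mean reached 10, the value in a library was divided by the mean of the 3 control libraries. In compound KO replicate 1 the median ratio was 0.401 for the 7 gamma crystallins, 0.343 for 8 alpha and beta crystallins and *Crygn*, 0.401 for 16 lens fiber cell genes and 0.510 for 12 lens epithelium genes. In compound KO replicates 2 and 3 the medians were 0.831 and 0.748 for gamma crystallins, 0.780 and 0.888 for alpha and beta crystallins, and 0.867 and 0.896 for lens fiber cell genes. In double KO replicates 1, 2 and 3 they were 0.759, 0.981 and 0.748 for gamma crystallins, 0.841, 0.810 and 1.01 for alpha and beta crystallins, and 0.821, 0.975 and 1.01 for lens fiber cell genes. In compound KO replicate 1 the gamma crystallins thus stood at a ratio close to that of the other fiber cell RNAs, apart from *Crygb* at 0.00408.

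**Figure D5:**
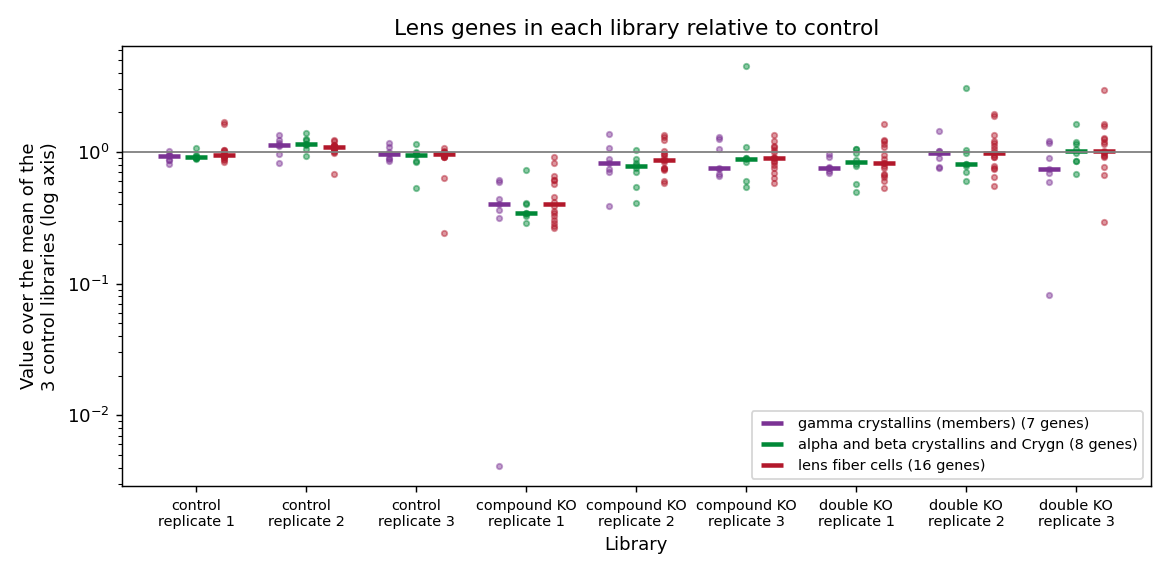
Value of each gene divided by the mean of the 3 control libraries (log axis), by library, for gamma crystallins, alpha and beta crystallins with *Crygn*, and lens fiber cell genes, with medians as horizontal marks. In compound KO replicate 1 the 3 medians are 0.401, 0.343 and 0.401, and the single points far below are *Crygb* in that library and *Cryga* in double KO replicate 3.

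The alpha and beta crystallins and *Crygn*, the other crystallin families of the lens, were tested as 8 of 9 genes listed, and *Cryaa* was not analysed here. At an adjusted p and 1.5-fold 0 of 8 were called by limma in each comparison, while 1, 1 and 0 passed at an unadjusted p and 1.5-fold in double KO against control, compound KO against control and double KO against compound KO, and 2, 1 and 0 at an unadjusted p alone. In double KO against control lenses their median log2 fold change was -0.21, against -0.31 for the 7 gamma crystallins and 0.011 for all genes tested, and 2 of 8 were lower in every double KO library. Of these *Cryab*, the small heat shock protein of the family, had 2533.8, 2545.5 and 3190.7 in control and 1571.2, 1648.5 and 1869.4 in double KO lenses (log2 fold change -0.70, SE 0.12, unadjusted p 0.00132, adjusted p 0.143 by limma), and was the 1 gene of the list past the unadjusted rule. In compound KO lenses *Cryab* had 791.4, 1123.6 and 1665.1 (log2 fold change -1.26, SE 0.29, adjusted p 0.481 by limma). At the other end of the list, the beta crystallin gene *Cryba4* had a log2 fold change of 0.73 (SE 0.54) in double KO against control lenses, with 2164.4, 6278.0 and 2347.2 against 2192.9, 2870.4 and 1101.0.

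In compound KO against control lenses the median was -0.65 for the alpha and beta crystallins, -0.67 for the gamma crystallins and 0.016 for all genes tested, with 5 of 8 and 3 of 7 lower in every compound KO library. *Cryba4* was again the highest, at 0.11 (SE 0.98). Between double KO and compound KO lenses the medians were 0.51, 0.39 and -0.0053, with *Cryba4* the highest at 0.63 (SE 1.01) and *Cryba1* the lowest at 0.30 (SE 0.72). *Crygn*, named after its values were seen, a distant relative of the gamma crystallins, had 3222.7, 4196.5 and 3493.2 in control, 1234.3, 2916.7 and 3039.4 in compound KO and 2846.8, 2864.8 and 3079.1 in double KO lenses, and like *Crygd* and *Crygf* was lower in all 6 mutant libraries.

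Transcription factors known to act on crystallin genes were listed as 16 genes, of which 15 were tested, and 0 were called at an adjusted p and 1.5-fold in any comparison by limma, with 1 in each comparison at an unadjusted p and 1.5-fold and 4, 2 and 2 at an unadjusted p alone. *Mafa*, a large Maf protein, passed the unadjusted rule in both comparisons with control lenses. It had 12.8, 14.7 and 12.8 in control, 3.2, 6.7 and 7.6 in compound KO and 9.4, 7.6 and 7.2 in double KO lenses, with log2 fold changes of -1.14 (SE 0.29, adjusted p 0.481 by limma) and -0.68 (SE 0.12, adjusted p 0.175 by limma). Maf, the large Maf protein known as the main activator of crystallin genes in fiber cells, was far more abundant, at 1053.9, 1198.3 and 1035.6 in control, 363.6, 875.7 and 969.4 in compound KO and 999.5, 998.5 and 1127.1 in double KO lenses. On the log2 scale its difference was -0.072 (SE 0.082) in double KO and -0.69 (SE 0.39) in compound KO against control lenses. Maf was named after its values were seen. *Prox1*, a homeobox factor that activates gamma crystallin genes, passed the unadjusted rule in double KO against compound KO lenses (log2 fold change 0.62, SE 0.21, adjusted p 0.665 by limma), with 427.1, 402.2 and 260.6 against 243.5, 201.4 and 247.9. The highest of the list in double KO against control lenses was *Meis1*, at 0.53 (SE 0.39), and in compound KO against control lenses *Sox2*, at 0.58 (SE 0.38), while between double KO and compound KO lenses *Sox2* was the lowest, at -0.70 (SE 0.39), and *Sox1* the highest, at 0.68 (SE 0.43).

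Markers of other cell types differed between the groups beside these values. In double KO lenses 7 of 8 erythroid genes summed to 2335.0 to 3866.6, against 1169.7 to 1639.3 in control and 1425.1 to 2832.1 in compound KO lenses. Skeletal muscle genes summed to 30.5 to 100.5 in double KO, 23.9 to 423.3 in compound KO and 3.5 to 6.3 in control lenses. The part of either in the gamma crystallin differences was not tested.

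Among 8144 genes with a symbol and a mean of at least 10, the genes with the most similar pattern were found by the median of Pearson's r with the 7 members over the 9 libraries, given as a description. Among the 8 highest were *Dhx32* (0.93), *Gm3934* (0.93), *Gm3699* (0.93), *Usp5* (0.92), *Isoc2a* (0.92), *Pomp* (0.92) and *Gm10076* (0.92), and none of them is a crystallin. *Dhx32*, a helicase, had 183.9, 221.3 and 186.2 in control, 98.0, 171.6 and 162.7 in compound KO and 159.1, 173.6 and 178.8 in double KO lenses. The 3 lowest were *Incenp* (-0.94), *Pcna* (-0.92) and *Abhd2* (-0.92), of which *Incenp* and *Pcna* serve cell division and DNA replication. *Pcna* had 38.3, 26.5 and 37.2 in control, 88.7, 38.0 and 41.3 in compound KO and 41.7, 41.7 and 39.3 in double KO lenses, with its highest value in compound KO replicate 1, where 6 of the members were lowest. Without that library the median r was 0.38 to 0.64 for these 7 genes and -0.43 to -0.65 for the 3 genes.

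The annotated neighbours of the members on the chromosome were read for signs of a shared regional pattern. *Idh1*, which lies beyond *Cryga* and encodes a dehydrogenase, had 114.0 to 124.1 in control, 106.7 to 139.9 in compound KO and 116.9 to 130.2 in double KO lenses, so that the groups overlapped. *Pikfyve*, a lipid kinase gene next to *Idh1*, had 24.5, 8.3 and 24.7 in control, 10.8, 23.0 and 24.3 in compound KO and 0.8, 6.6 and 5.0 in double KO lenses, all double KO libraries being below the rest (log2 fold change -2.07, SE 0.68, adjusted p 0.404 by limma against control). *D630023F18Rik* had 1.1 to 5.7 over the 9 libraries and *Plekhm3* 0.0 to 17.6. Beside *Crygs*, *Dnajb11*, a chaperone of the endoplasmic reticulum, had 92.4 to 98.8 in control, 53.9 to 89.2 in compound KO and 81.0 to 95.8 in double KO lenses, and *Tbccd1* had 0.0 to 7.4 over the 9 libraries.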

How the data were processed

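RNA-seq values of E16.5 lenses were read from 1 deposited table with 9 libraries in 3 genotypes, grouped as in the labels, and 0 columns were left without a sample. The authors aligned strand-specific paired reads to mm39 with HISAT2, assembled transcripts with StringTie, imported the counts in edgeR and removed low entries. Trimmomatic and Cufflinks are named in the submitters' processing notes, and versions are not given in the sources used here. What the authors deposited is a normalized signal: CPM, further scaled per library and rounded, as the unequal totals of the libraries show. Read counts were not used here, so count models were not run.

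Log2(value + 1) was fitted for each pair of groups with limma 3.58.1 in R 4.3.3 and an intensity trend, over entries with a symbol that reached 1 in 2 or more of the 6 libraries. Tests were two-sided, the Benjamini-Hochberg adjustment took in every gene of the fit, and genes were called at 0.05 with a 1.5-fold change. A call at the unadjusted p is also given, because the paper does not say which it used. The fit was tested on simulated data. Correlations were tested by exact permutation of 362880 orders of the libraries, with adjustment over 21 pairs. Deviations of libraries with the same replicate number correlated by -0.106 to 0.216, and the numbers were not used as pairs. Positions and transcripts were from GENCODE, promoters from RefSeq's table. The members and gene lists were chosen with earlier results of these data known. Genes named are the members, the called, highest and lowest genes of the crystallin and transcription factor lists, the 8 genes most (of which 1 is not reported here) and 3 least like the members, *Mafg*, *Mafk* and neighbours on the chromosome, and others where the text says so. Protein sequences were not used here.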

Additional observations from a re-analysis of the deposited data

Results flagged for a closer look

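Entries without a symbol, which enter no main comparison, were searched in the 2 libraries where a member was below 1/5 of its median over the 9 libraries. In each, the entry with the largest excess over its highest control value was taken, so that a value above the control libraries was fixed by this choice. The other libraries were not searched in this way, and how often such an excess occurs was not tested. In double KO replicate 3, where *Cryga* had 1819.9 against a median of 21140.0, the entry without a symbol with the largest excess over its highest control value had 73648.6, against at most 36823.8 in control lenses and 16118.6 to 38319.4 in the other 8 libraries. In compound KO replicate 1, where *Crygb* had 71.6 against a median of 13129.1, the corresponding entry had 725.0, against at most 254.2 in control lenses and 0.2 to 601.4 in the other 8 libraries. Among entries with a symbol, the largest excess over control was that of *Ftl1* in double KO replicate 3, at 1685.9 against 608.4 to 1853.7 in the other 8 libraries, and that of *Col1a1*, a fibroblast collagen, in compound KO replicate 1, at 1173.6 against 4.0 to 59.6. Whether reads of a gamma crystallin were counted under an entry without a symbol was not tested.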

How the results depend on the processing

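No alternative called a member at an adjusted p. Of 357 fold changes of members under the alternatives, 331 kept their direction and 26 reversed, and 15 of these reversed when a replicate was left out. The other 11 reversals all came from changes of scaling. Alternatives that change only the entries of the fit, the residual spread or the call leave a member's fold change as it was. Their values could not reverse and are counted among the 331. At an unadjusted p, the fold change threshold removed, 2 members passed in double KO against control, as did 1408 of all 14122 genes tested. The unadjusted p and 1.5-fold gave the following in compound KO against control. Under the scaling to lens fiber cell genes (chosen after seeing the data) 1 passed, namely *Crygs*, which was higher (0.76), as did 1271 of all 14230 genes tested. In a single fit of all 9 libraries 2 passed (*Crygd* and *Crygf*, both lower), as did 1125 of all 14348 genes tested. When a replicate was left out 0 to 1 passed. The 1 was *Crygb* without compound KO replicate 1, where 517 of all 14042 genes tested passed. The correlated pairs, 6 with all libraries, numbered 0 under scaling to library totals, 0 under scaling to lens fiber cell genes, 0 for deviations from group means, 3 under scaling to the total without crystallins and entries without a symbol, and 0 to 5 when a replicate was left out, with 0 without control replicate 2, 0 without compound KO replicate 1, and 3 without double KO replicate 1 or replicate 2. For deviations from group means, the 216 permutations within genotypes are too few for 1 pair alone to pass the adjusted p. The cause of these changes in number was not tested.

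Reversed values were as follows. In compound KO against control, scaling to library totals gave *Cryga* 0.067, and scaling to lens fiber cell genes gave *Cryga* 0.53, *Crygc* 0.057, *Crygd* 0.044 and *Cryge* 0.18. In double KO against compound KO, *Crygs* had -0.14 under library totals and -0.020 without crystallins in the total, and under lens fiber cell genes *Crygc* had -0.11, *Crygd* -0.28, *Crygf* -0.014 and *Crygs* -0.46. With a replicate left out, double KO against control ran from -1.99 to 0.076 for *Cryga*, -0.030 to 0.23 for *Cryge* and -0.052 to 0.20 for *Crygs*. Compound KO against control ran from -0.47 to 0.099 for *Cryga* and -0.18 to 0.40 for *Crygs*. Double KO against compound KO ran from -1.80 to 0.27 for *Cryga*, -0.083 to 0.80 for *Crygc*, -0.029 to 0.43 for *Crygd* and -0.32 to 0.26 for *Crygs*. Where a group keeps 2 libraries, the residual spread comes from the rest of the fit. The median of all genes moved by 0.24 and 0.67 in compound KO against control under library totals and lens fiber cell genes, and by 0.20 in double KO against control under the latter.

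With the replicate block, which was not supported by pairing, 0 of 7 members were called in each comparison, and *Crygd* in double KO against control had -0.46 (SE 0.076). As a share of entries with a symbol, the gamma crystallin sum was 11.5% in control, 8.64% in compound KO and 9.59% in double KO lenses on average, against 7.81%, 6.04% and 6.52% of the whole table. Count models in edgeR or DESeq2 were not run because the values are not counts. Depth is unknown, and with 3 libraries a group an exact permutation test cannot go below 0.1.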

Other observations

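Fiber cell genes other than crystallins had differences of either sign in double KO lenses, and their difference from the members was not tested. Of 19 lens fiber cell genes tested in double KO against control lenses, 10 had positive and 9 negative differences, with a median log2 fold change of 0.087 against -0.31 for the gamma crystallins, and by limma 0 passed the adjusted p and 3 passed the unadjusted p and 1.5-fold. These were *Bfsp1*, a protein of the beaded filament of fiber cells (-0.77, SE 0.13, adjusted p 0.131 by limma), *Gja3*, a gap junction protein (-0.78, SE 0.31, adjusted p 0.484 by limma), and *Cdkn1c*, a cell cycle inhibitor (0.79, SE 0.15, adjusted p 0.194 by limma). *Bfsp1* had 4539.3, 5520.2 and 4519.0 in control, 1292.4, 2829.9 and 2828.6 in compound KO and 2604.0, 2681.6 and 3266.6 in double KO lenses. All 6 mutant libraries of *Bfsp1* were below the control libraries, as they were for *Crygd* and *Crygf*. These genes were named after their values were seen.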
